A study of Mus musculus with 14 samples.

Results

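The mouse major histocompatibility complex (MHC) on chromosome 17 holds the H2 antigen-presentation genes and, between them, many genes with other functions. Described here are 10 of those non-H2 genes: Tnxb, C4b, C4a, Notch4, Ring1, Ppp1r10, Skiv2l, Ager, Cfb and Stk19. They were selected on the variant counts reported below, since several differed between tumour groups, so their counts and group differences are given as a description without a test. Of the 10 genes, 9 had a protein-coding transcript in the variant tables, out of 21292 protein-coding genes listed in any tumour. C4a had none. In the GRCm38.p6 gene table, used only for names, gene order and gene length, all 9 lay between Ring1 and Ppp1r10, a stretch that also held 17 H2 genes.

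Exomes were sequenced from 12 mammary tumours, 3 in each of 4 groups, all grown from Balb/c p53null mammary fragments. In the gel experiment the fragment, taken from a syngeneic donor aged 8 to 10 weeks, was placed in a cleared mammary fat pad of mice aged 3 to 4 weeks, together with rat-tail collagen 1 and 20% basement membrane extract. The collagen was left without ribose (soft, tumours A1, A2 and A3) or crosslinked with 500 mM L-ribose (stiff, tumours A7, A8 and A9). In the host experiment fragments, from donors of the same age by the shared protocol, were placed in LysM-Cre mice, either GPX4 wild type (WT, tumours B1, B2 and B3) or GPX4 knockout (KO, tumours B4, B5 and B6); both host groups carried LysM-Cre, which is active in myeloid cells, so the knockout lies in host cells and not in the p53null fragment. Tumours were taken at a diameter of up to 2 cm. The labels used here do not state the strain or age of the LysM-Cre hosts. They give each tumour as a separate sample and do not say whether fragments came from the same donor mouse.

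The MHC is among the most polymorphic parts of the mouse genome, and inbred strains carry different combinations of its alleles, called haplotypes. The reference genome comes from C57BL/6J mice, whose MHC haplotype is not the one carried by Balb/c mice, so a count of differences from the reference can hold inherited as well as acquired variants. Whether haplotype accounts for any value below was not tested, because the tables hold no position, genotype, allele fraction or read depth.

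Each value is the number of variants that snpEff, an annotation program, assigned to a gene in a tumour. HIGH impact covers frameshifts, stop codons and splice-site changes, MODERATE mostly missense changes, LOW mostly synonymous changes, and MODIFIER intron, flanking and untranslated variants. Protein-altering variants are HIGH plus MODERATE, and coding variants add LOW. Over all protein-coding genes the tumours held 8316 (B5) to 16536 (B1) protein-altering variants. In every tumour of the gel experiment the total was below that of each WT host tumour. B5 and A9, from a KO host and a stiff gel, had the lowest totals, 8316 and 8993. The depth behind the counts is unknown; the stated depth was above 50x.

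Most protein-altering variants of the 10 genes lay in Tnxb, C4b and Notch4. These genes occupy 3 places in a stretch of 111 protein-coding genes and held 41.0% of its 3117 protein-altering variants, summed over the 12 tumours. The 17 H2 genes held 11.1%, and the 85 remaining genes 45.2%. The other 6 genes with a protein-coding transcript contributed between 0 and 7 variants each per tumour. Counts per gene, not scaled to gene length, were uneven along the stretch. The 10 genes between Notch4 and Tnxb had 7 to 16 protein-altering variants together per tumour, and the 5 genes from Stk19 to Cfb, just beyond C4b, had 0 to 4. Of the 19 genes from Ly6g6c to Nfkbil1, 13 had none in any tumour.

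**Figure D1:**
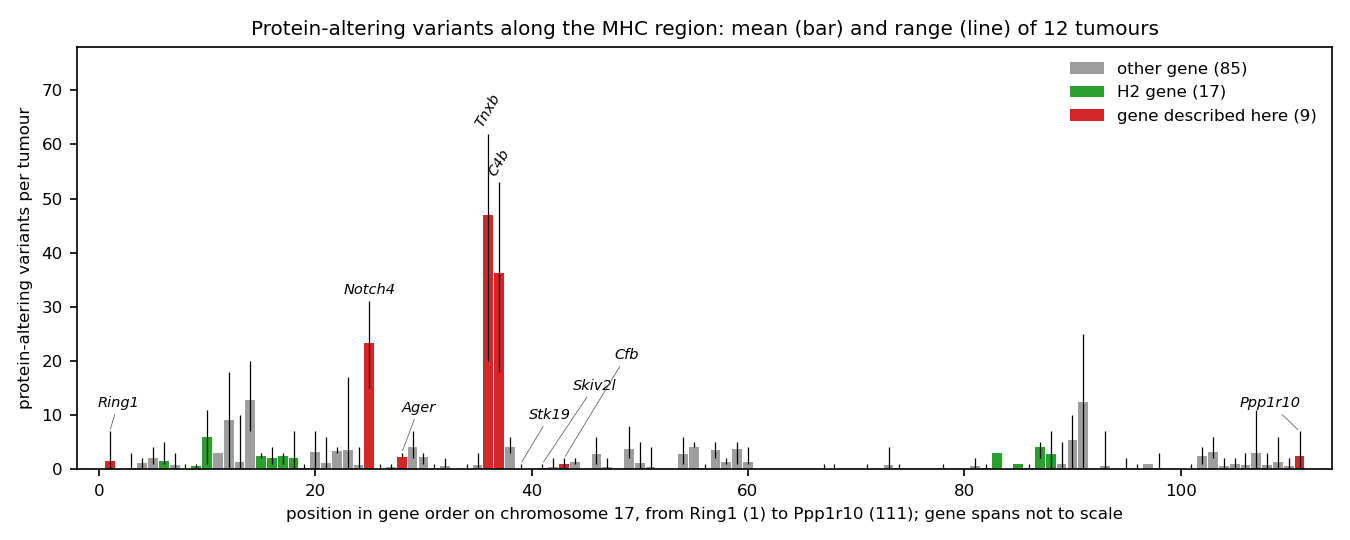
Protein-altering variants per tumour (vertical axis) for the 111 protein-coding genes from Ring1 to Ppp1r10 in chromosomal order (horizontal axis, not to scale); bars are means of the 12 tumours and lines run from the lowest to the highest tumour. Tnxb, C4b and Notch4 rise above their neighbours, with means of 47.0, 36.2 and 23.2.

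Tnxb (ENSMUSG00000033327) encodes tenascin-X, an extracellular matrix glycoprotein that binds collagen. In the soft tumours A1, A2 and A3 it had 50, 62 and 52 protein-altering variants, and in the stiff tumours A7, A8 and A9 it had 62, 41 and 23. In the host experiment it had 53, 60 and 46 in B1, B2 and B3 and 34, 20 and 61 in B4, B5 and B6. All 4 groups overlapped, and the stiff and KO groups each spanned nearly the whole range of the 12 tumours. The group means in falling order were 54.7 ± 6.43 in soft gels, 53 ± 7 in WT hosts, 42.0 ± 19.5 in stiff gels and 38.3 ± 20.8 in KO hosts (SD, n = 3 each). No neighbours in that order differed by more than the larger of their SDs.

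C4b (ENSMUSG00000073418) encodes complement component C4, which is cleaved to help form the enzyme that activates C3. Counts were 44, 35 and 32 in the soft tumours and 36, 41 and 18 in the stiff tumours. They were 53, 45 and 44 in WT hosts and 30, 22 and 35 in KO hosts. The soft and stiff groups overlapped, whereas every KO tumour was below every WT tumour. The mean in KO hosts was 29.0 ± 6.56 against 47.3 ± 4.93 in WT hosts (SD, n = 3 each), a difference of -38.7%; soft and stiff gels, at 37.0 ± 6.25 and 31.7 ± 12.1, lay between them. In that order, stiff and KO, and soft and stiff, were closer than the larger SD of each pair, while WT and soft were not. C4b and C4a are close copies of each other, and reads could be placed on either, so their counts are uncertain to an extent that was not tested.

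Notch4 (ENSMUSG00000015468) encodes a Notch receptor, best known from endothelium and, in mouse mammary tumours, as the site called Int3 where mouse mammary tumour virus inserts. Protein-altering counts were 24, 23 and 21 in soft and 22, 23 and 21 in stiff tumours. In the host experiment they were 31, 22 and 30 in WT and 23, 15 and 24 in KO hosts. The 6 gel tumours were thus within 3 variants of each other, and the WT and KO groups overlapped. Means were 27.7 ± 4.93 in WT hosts, 22.7 ± 1.53 in soft gels, 22 ± 1 in stiff gels and 20.7 ± 4.93 in KO hosts. Only WT and soft, among neighbours in that order, differed by slightly more than the larger SD, 4.93.

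**Figure D2:**
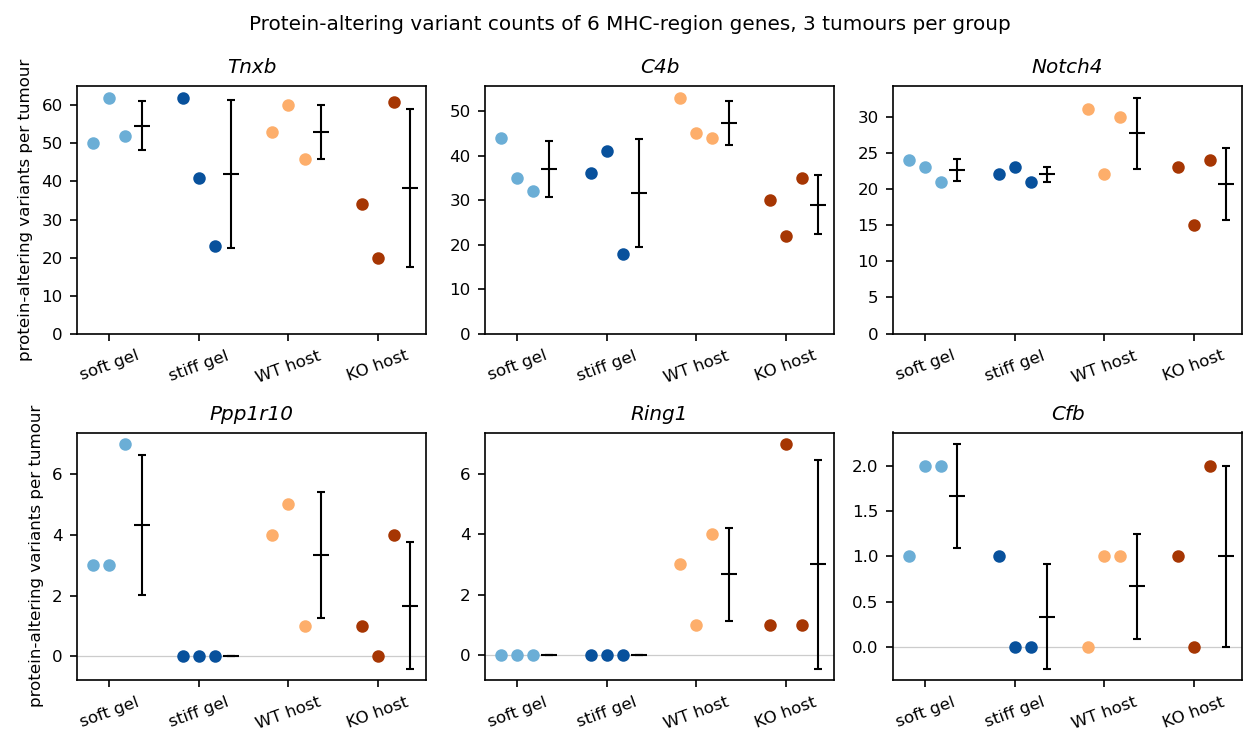
Protein-altering variants per tumour (vertical axis, linear, with a separate scale in each panel) for 6 genes in the 4 groups (horizontal axis); points are single tumours, and the black mark and bar give the mean and SD of 3 tumours. C4b is lower in each KO than in each WT tumour, Ppp1r10 is at 0 in the stiff tumours, and Ring1 is at 0 in all 6 gel tumours.

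The remaining complement genes carried few variants. Cfb (ENSMUSG00000090231), factor B of the alternative pathway, had 1, 2 and 2 protein-altering variants in soft, 1, 0 and 0 in stiff, 0, 1 and 1 in WT and 1, 0 and 2 in KO tumours, so all groups overlapped. C4a (ENSMUSG00000015451), the duplicated neighbour of C4b, was listed in all 12 tumours but with no protein-coding transcript, and the gene table gives it as a transcribed pseudogene. Its count was therefore 0 by the rule used here. Over its other transcripts 1 coding variant appeared in 1 tumour, B1, and MODIFIER variants numbered 5 to 12.

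Ring1 (ENSMUSG00000024325) encodes a ubiquitin ligase subunit of Polycomb repressive complex 1, which silences genes. It had no protein-altering variant in any of the 6 gel tumours. The host tumours had 3, 1 and 4 in B1, B2 and B3 and 1, 7 and 1 in B4, B5 and B6, so the gel and host tumours did not overlap while WT and KO did. Of the 7 in B5, 5 were frameshifts; B3 and B6 had 1 frameshift each and the other host tumours none. Non-coding variants listed under Ring1, flanking and untranslated ones included, numbered 5 to 11 in gel and 3 to 21 in host tumours. Its introns held few: 0, 0 and 1 in A1, A2 and A3 and 0, 2 and 0 in A7, A8 and A9. They held 1, 1 and 2 in B1, B2 and B3 and 4, 0 and 1 in B4, B5 and B6. B5, with the highest Ring1 count, had the lowest total over all genes.

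Ppp1r10 (ENSMUSG00000039220) encodes PNUTS, a nuclear targeting subunit of protein phosphatase 1. Its counts were 3, 3 and 7 in soft tumours and 0 in each stiff tumour, so these groups did not overlap. They were 4, 5 and 1 in WT and 1, 0 and 4 in KO hosts, which did. With synonymous variants added the stiff tumours were still at 0, while their introns held 12, 2 and 4 variants in A7, A8 and A9 against 4, 28 and 9 in A1, A2 and A3.

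Ager, Skiv2l and Stk19 varied little in protein-altering variants. Ager (ENSMUSG00000015452) encodes RAGE, the receptor for advanced glycation end products, and had 2 protein-altering variants in 10 tumours and 3 in A2 and B1. Its MODIFIER variants numbered 42, 52 and 43 in soft and 40, 34 and 39 in stiff tumours, without overlap, as for 8.13% of all genes lower in every stiff tumour. Skiv2l (ENSMUSG00000040356), the helicase of the SKI complex that feeds RNA to the exosome, had 1 in A7 and 1 in B3. Stk19 (ENSMUSG00000061207), named as a serine/threonine kinase, had 1, in B6.

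The group differences of the 10 genes are read against those of all genes. Only genes with 3 or more variants summed across the compared tumours were taken, which left 6 of the 10 genes in the gel comparison and 7 in the others. Between stiff and soft tumours 1 of the 6, Ppp1r10, was lower in every stiff tumour; of all 4311 genes 2.69% were lower in this way and 1.18% higher, and 0 of the 6 were higher. Between KO and WT hosts 1 of 7, C4b, was lower in every KO tumour; of all 5308 genes 4.26% were lower and 0.735% higher, and 0 of the 7 were higher. Between the experiments 1 of 7, Ring1, was higher in every host tumour; of all 6829 genes 0.205% were higher and 0.0% lower, and 0 of the 7 were lower. The genes were chosen from these contrasts, so nothing is read from the shares.

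edgeR's quasi-likelihood test with Benjamini-Hochberg adjustment called 0.0% of all genes in each of the 3 comparisons, and none of the 10 genes. At an unadjusted p under 0.05 it gave 106 genes between stiff and soft, 199 between KO and WT, and 413 between host and gel tumours. DESeq2 called 0, 0 and 5, with 7, 28 and 105 at an unadjusted p under 0.05, and none of the 5 was one of the 10 genes.

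Summed over the 10 genes, the tumours held 124, 128 and 116 protein-altering variants in soft gels and 124, 107 and 64 in stiff gels. In the hosts they held 147, 136 and 129 in WT and 92, 66 and 130 in KO. The groups overlapped in both comparisons, although only through B6 at 130 against B3 at 129 in the hosts. The mean was 98.3 ± 30.9 in stiff and 122.7 ± 6.11 in soft tumours (SD, n = 3 each), a difference of -19.8% that was -5.84% with A9 left out and -30.3% with A7 left out; without A7 these groups did not overlap. It was 96 ± 32.2 in KO and 137.3 ± 9.07 in WT hosts, a difference of -30.1% that was -19.2% with B5 left out; without B6 or without B3 these groups did not overlap. Host tumours averaged 116.7 ± 31.0 and gel tumours 110.5 ± 24.0 (SD, n = 6 each), a difference of 5.58% that turned to -2.62% without A9.

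The total over all genes and these sums did not always run together. A9 and B5 were lowest in both, whereas B4 had a higher total than A1, 10854 against 9908, and a lower sum, 92 against 124. Per 1000 protein-altering variants of the same tumour, the 10 genes held 11.5 ± 0.922 in soft, 10.0 ± 2.58 in stiff, 9.61 ± 0.679 in WT and 8.39 ± 0.424 in KO tumours. On this scale the KO mean differed from the WT mean by -12.6%, and the KO tumours, at 8.48, 7.94 and 8.77, were all below the WT tumours, at 8.89, 9.70 and 10.2. Host tumours differed from gel tumours by -16.2% on this scale, the opposite direction to the counts. C4b held 2.59 ± 0.207 per 1000 in KO and 3.30 ± 0.165 in WT hosts, again with no overlap; 3.92% of all genes were lower in every KO tumour on this scale. Tnxb held 3.22 ± 0.859 and 3.71 ± 0.539, with overlap. The part of the total burden in the group differences was not tested.

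The difference in C4b between WT and KO hosts was followed through the impact classes. In LOW-impact variants C4b had 59, 54 and 37 in WT and 34, 25 and 42 in KO hosts, which overlapped. In introns it had 147, 138 and 128 in WT and 110, 45 and 115 in KO hosts, where every KO tumour was lower. In HIGH-impact variants it had 14, 9 and 14 against 7, 4 and 10, with overlap. In MODERATE variants it had 39, 36 and 30 against 23, 18 and 25. These are the larger part of the protein-altering count described above, so they are not a separate result. Of all 15066 genes taken for introns 6.43% were lower in every KO tumour.

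For Notch4 the impact classes differed in direction between stiff and soft tumours. The MODERATE counts, the larger part of its protein-altering variants, were 17, 17 and 15 in stiff and 17, 16 and 13 in soft tumours, with overlap and the higher mean in stiff tumours (16.3 ± 1.15 against 15.3 ± 2.08). The HIGH counts of 5, 6 and 6 in stiff tumours were all below the 7, 7 and 8 in soft tumours. Its LOW counts of 12, 12 and 9 were likewise all below 14, 14 and 15. Over all genes 2.37% were lower in every stiff tumour in MODERATE, 1.83% in HIGH and 2.46% in LOW variants. With all coding variants Notch4 and Ppp1r10 were lower in every stiff tumour, as were 2.64% of all genes. Per 1000 protein-altering variants Ppp1r10 and Cfb were, as were 2.6% of all genes.

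**Figure D3:**
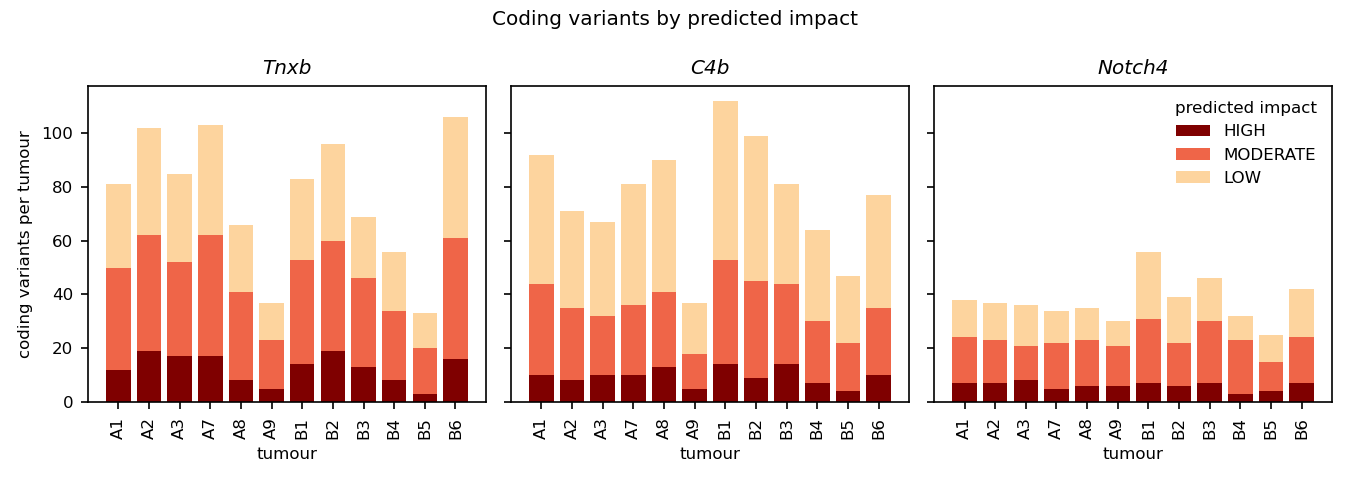
Coding variants per tumour (vertical axis, shared by the panels) of Tnxb, C4b and Notch4 in the 12 tumours (horizontal axis), stacked by predicted impact. All impact classes contribute in each tumour, and the stacks of A9 and B5 are the lowest in each gene, for example 37 and 33 coding variants in Tnxb.

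The kinds of variant in Tnxb, C4b and Notch4 were set beside those of all genes. Coding variants per 100 intron variants numbered 30.9 in Tnxb, 67.6 in C4b and 48.6 in Notch4, against 5.58 over all protein-coding genes. This ratio was not scaled to exon or intron length, and exome capture reads only parts of introns. It was not particular to these 3 genes. Mean coding and intron counts per tumour were 24.25 and 52.0 in Tap1, 21.6 and 90.2 in Tap2, and 18.3 and 97.4 in Cchcr1. These had the largest mean protein-altering counts of the stretch outside the 10 genes and the H2 genes. Over the 12 tumours Tnxb had 1.24 missense variants per synonymous variant, C4b 0.896 and Notch4 1.26, against 1.28 over all protein-coding genes. C4b alone had fewer missense than synonymous variants, 319 against 356, and its ratio in single tumours, 0.727 to 1.12, lay below the 1.21 to 1.31 of all genes. Per 100 missense variants, frameshifts numbered 32.0 in Tnxb, 23.5 in C4b and 21.3 in Notch4, against 28.2 over all genes. HIGH-impact variants made up 26.8, 26.2 and 26.2 of 100 protein-altering variants, against 27.2. Notch4 had 9.64 stop-gained variants per 100 missense variants, Tnxb 3.35 and C4b 4.08, against 6.78 over all genes. These ratios pool tumours that may share variants, so they are not independent counts.

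Several classes had nearly the same count in every tumour. Notch4 had exactly 1 splice-donor variant in each of the 12 tumours. C4b had 1 stop-gained variant in 11 tumours and 2 in A8. Ager had 1 frameshift in 11 tumours and 2 in A2, and 1 missense variant in 11 tumours and 2 in B1. Whether the same variant recurs in each tumour cannot be told from counts.

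The lowest count among the 12 tumours gives the most that all 12 could share. Summed gene by gene over the 10 genes it was 55, which is 48.4% of their mean of 113.6 per tumour, against 36.6% over all protein-coding genes. It was 92.3% of the mean for Ager, 64.5% for Notch4, 49.7% for C4b and 42.6% for Tnxb, and 0 for the other genes. Among the 407 genes with a mean of at least 5 the median share was 62.5%, with quartiles of 40.0% and 77.6%. Tnxb and C4b were therefore between the lower quartile and the median, and Notch4 was just above the median. With A9 and B5 left out, the share for the 10 genes was 70.6%. A lowest count cannot fall when tumours are left out, and no such share over all genes is given, so nothing is read from the rise.

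A9 and B5 had the lowest Tnxb and C4b counts. This was seen most clearly in introns. Tnxb had 142 intron variants in A9 and 109 in B5, and 258 to 304 in the other 10 tumours. C4b had 41 in A9 and 45 in B5, and 110 to 147 in the others. Notch4 had 60 and 59, close to the next tumour, A3, at 65. The gap was thus wide in the adjacent genes Tnxb and C4b and small in Notch4, which 10 other genes separate from Tnxb.

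**Figure D4:**
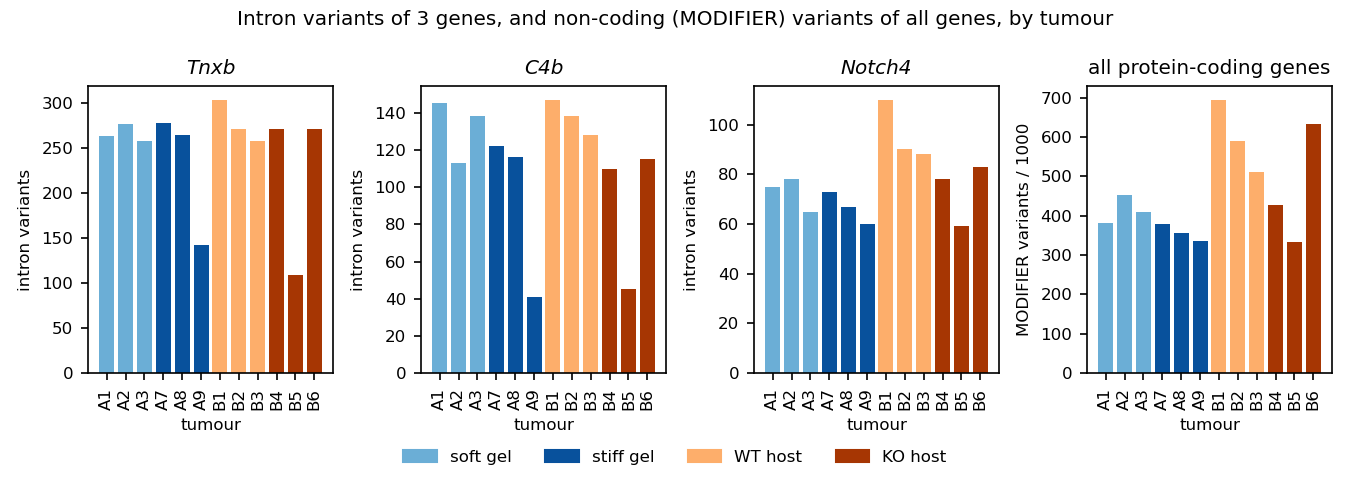
Intron variants per tumour (vertical axes, linear, each from 0) of Tnxb, C4b and Notch4 by tumour (horizontal axis), with the MODIFIER variants of all protein-coding genes, divided by 1000, at the right. A9 and B5 stand below the other tumours in Tnxb and C4b, whereas over all genes their totals, 335381 and 334408, are close to the next one, 356962 in A8.

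In introns the total over all genes did not show a gap of that size. It was 247367 in A9, 251229 in B5 and 263672 in A8, the third lowest. MODIFIER variants of all protein-coding genes numbered 334408 in B5, 335381 in A9 and 356962 in A8, the third lowest. The gap over all genes was wider in other classes. Frameshifts numbered 1315 in A9, 1380 in B5 and 1895 in A1, the third lowest, and HIGH-impact variants 2110, 2056 and 2702. In C4b the third-lowest intron count was 2.44 times the second-lowest, and in Tnxb 1.82 times. Of 1651 genes with a mean of at least 50 intron variants, A9 and B5 were the lowest pair in 361 (21.9%), and 21 of these, C4b included, had a gap at least as wide as that of C4b and 31 at least as wide as that of Tnxb. In protein-altering variants A9 and B5 were the lowest pair in 62 of 407 genes with a mean of at least 5 (15.2%), Tnxb and C4b included. Of these 62, 37 had a gap at least as wide as that of Tnxb and 40 at least as wide as that of C4b. In coding variants they were the lowest pair in 99 of 814 genes, with 52 and 61 gaps at least as wide. The gap of these 2 genes thus stood out in introns and not in protein-altering or coding variants.

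The low counts of A9 and B5 did not extend to every class or neighbour. Upstream variants of Tnxb numbered 16 in both A9 and B5, within the 14 to 24 of the other tumours. Cyp21a1, the steroid hydroxylase gene next to C4b in the table, had 6 protein-altering variants in A9 and 5 in B5, against 3 to 5 in the others. Stk19, the next gene listed here beyond C4b, had 10 intron variants in A9 and 6 in B5, the highest of all tumours, against 2 to 5 in the others. Downstream variants of C4b were lowest in these tumours, 24 and 30 against 42 to 75, as were those of Tnxb, 11 and 12 against 27 to 69. A variant near adjoining genes can be listed under each of them. Whether haplotype goes with these counts was not tested.

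Compared per kilobase of gene span, C4b was the densest of the 9 genes. It had 4.85 coding and 7.18 intron variants per kb, averaged over the tumours. Notch4 had 1.55 and 3.18 and Tnxb 1.29 and 4.17. The medians over 20377 protein-coding genes with a known span were 0.00552 and 0.0842. Ager followed with 0.647 and 1.46, while Stk19, at 0.00645 and 0.329, was near the coding median. The span includes introns, of which exome capture reads only parts, so these are not densities per base sequenced.

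Counted per gene, without regard to length, the genes directly beside the 10 had far fewer protein-altering variants than Tnxb, C4b and Notch4. Btnl6 and Gpsm3, on the sides of Notch4, had 0 to 4 and 0 to 1 protein-altering variants per tumour. Atf6b, a stress-response transcription factor gene before Tnxb, had 0 to 3, and Cyp21a1, after C4b, had 3 to 6. Pbx2 and Rnf5, beside Ager, had 0 to 1 and 2 to 7. Dxo and Nelfe, beside Skiv2l, had 0 and 0 to 2, and C2, the complement gene next to Cfb, had 1 to 2. H2-Ke6 beside Ring1 had 0, and Mrps18b beside Ppp1r10 had 0 to 2. Gene spans differ, so counts per gene are not densities. Per kb of span, Rnf5 had 2.64 and Cyp21a1 2.06 coding variants, above the 1.29 of Tnxb and 1.55 of Notch4. The other neighbours named here had 0.176 (Btnl6) or less. The median over the 111 genes of the stretch was 0.158 coding variants per kb, against 0.00552 over all protein-coding genes. Whether haplotype goes with this was not tested.

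The other genes of the stretch were compared between the groups in the same way. Tap2 and Tap1, the subunits of the peptide transporter of antigen presentation, and Cchcr1, a coiled-coil protein gene, had the largest mean protein-altering counts outside the 10 genes and the H2 genes. Tap2 had 7 to 20 per tumour, Tap1 0 to 18 and Cchcr1 0 to 25. Between stiff and soft tumours 1 of 37 such genes, Ppt2, was lower in each stiff tumour, beside the 2.69% of all genes given above. Between KO and WT hosts 5 of 46 were lower in each KO tumour, namely Btnl4, Pbx2, Agpat1, Tcf19 and Dhx16, and 0 of 11 H2 genes were, beside 4.26% of all genes. None of 52 such genes separated gel from host tumours. On a list of 39 MHC class III genes, the part between the class I and class II genes, 26 had a protein-altering variant in some tumour. Of these, 1 of 15 tested between stiff and soft tumours was without overlap, Ppt2, beside 2.69% of all genes. Between KO and WT hosts 2 of 17 were, Agpat1 and Pbx2, beside 4.26%, and 0 of 21 between host and gel tumours. All 3 are among the genes already named above.

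The genes that work with the 10 were counted from lists of known partners. Of 30 complement genes, 15 had a protein-altering variant in some tumour. C1ra, a protease of the C1 complex, had 10, 11 and 9 in WT and 4, 1 and 8 in KO hosts, without overlap. It was the only one of 7 tested, beside 4.26% of all genes lower in every KO tumour. In A9 C1ra had 0, against 11 and 12 in A7 and A8. Masp2, a lectin-pathway protease that cleaves C4, had 4 to 6 in all 12 tumours. Of 27 Notch pathway genes 19 had a variant; Ncstn, a gamma-secretase subunit, had 8 to 14 and Adam17, which cleaves Notch, 4 to 11. In this list Notch3 alone separated groups, with 4, 3 and 3 in soft and 1, 0 and 0 in stiff tumours. It was 1 of 6 tested, beside 2.69% of all genes lower in every stiff tumour.

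Of the 3 other tenascin genes, Tnn, which encodes tenascin-W, had 0 to 1 in gel and 3 to 7 in host tumours, without overlap. It was 1 of 2 tested, beside 0.205% of all genes higher in every host tumour. Tnr, tenascin-R of the nervous system, had 0 to 4 in gel and 1 to 8 in host tumours. Of 19 genes of Polycomb repressive complex 1, 10 had a variant and none separated any groups; Cbx6 had 0 to 8 and Kdm2b 0 to 2. Of 16 SKI complex and exosome genes 9 had one. Exosc10, a catalytic exosome subunit, had 2, 5 and 4 in WT and 1, 0 and 1 in KO hosts, without overlap. It was 1 of 3 tested, beside 4.26% of all genes lower in every KO tumour. Of 9 genes for RAGE ligands 4 had a variant, S100a1 with 0 to 4 and App with 0 to 1. Of 5 genes for protein phosphatase 1 and its PNUTS complex 2 had one; Wdr82, a PNUTS partner, had 2 in 11 tumours and 3 in B4. No gene of these lists passed edgeR's test over all genes.

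Across the 12 tumours the coding counts of Tnxb were most like those of Shf (Pearson r = 0.90) and Map1a (r = 0.84) among 814 genes with a mean of at least 5. C4b was most like Slc39a2 (r = 0.87) and H3c3 (r = 0.87), and Notch4 most like Myh7 (r = 0.91) and Kif20b (r = 0.91). Without A9 and B5, r for Tnxb was 0.73 with Shf and 0.58 with Map1a. For C4b it was then 0.67 with Slc39a2 and 0.77 with H3c3, and for Notch4 0.94 with Myh7 and 0.90 with Kif20b. All points share the burden of their tumour: the total over all genes gave r = 0.56 with Tnxb, 0.66 with C4b and 0.87 with Notch4. Within the gel tumours alone, r with the total was 0.79 for Tnxb, 0.19 for C4b and 0.62 for Notch4. Within the host tumours alone it was 0.87, 0.91 and 0.90. Among the 3 genes, Tnxb and C4b gave r = 0.62 over 12 tumours and 0.072 over the 10 other than A9 and B5. Tnxb and Notch4 gave 0.50 and 0.071, and C4b and Notch4 gave 0.77 and 0.67. The relations of Tnxb to C4b and to Notch4 thus rest on A9 and B5. These are descriptions over tumours of 4 groups and carry no test.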

How the data were processed

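Exome variants of 12 tumours were analysed, and 2 tail samples were not used here. Capture used a SureSelectXT mouse kit and sequencing gave 150 bp pairs with a stated 6 Gb per sample, per the labels' protocols. The tools were BWA 2.2.1 with SAMtools 1.19.2 and GATK, on GRCm39, per the submitters' processing notes. How variants were called and filtered, and whether normal tissue was subtracted, is not stated in these sources. The authors deposited snpEff tables that give a variant count for each transcript by impact class and by type of effect, per the file headers. Files and gene table differ in build, so no coordinates are given.

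A gene's count was the maximum over its protein-coding transcripts for each class, with unlisted genes at 0, so variants in different transcripts can be missed. Gene symbols matched the GRCm38.p6 table for 95.7%. All genes whose counts summed to at least 3 were tested with edgeR 4.0.16 (quasi-likelihood, equal library sizes, Benjamini-Hochberg, threshold 0.05), with DESeq2 1.42.0 as an alternative, in R 4.3.3. The edgeR procedure was also run on simulated counts in which only genes with a mean of at least 5 were raised, by several fold. That run does not show what the procedure would call at lower counts or for smaller differences. The rest was computed in Python 3.11.15. The spread between tumours may be partly technical, since the labels say only that they are separate samples.

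The genes and lists were chosen with earlier results of these data known. Named are the 10 genes, the 3 neighbours with the largest mean count, those beside a described gene, the 2 leading genes of each list, the 2 most similar genes by coding count, and any gene of the stretch or a list without overlap, the last chosen after their values were seen. Alternatives changed the collapsing of transcripts, biotypes, impact classes, scaling, count minimum, tool and tumours included.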

Additional observations from a re-analysis of the deposited data

How the results depend on the processing

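The summed count of the 10 genes was lower in stiff than in soft tumours and lower in KO than in WT hosts under each of 13 alternatives, from -30.3% to -5.84% and from -42.5% to -12.6%; the last of these was per 1000 protein-altering variants, and moved by more than the spread between replicates. Host minus gel ran from -16.2% to 14.8% and was below 0 in 2 of 19 alternatives. The number of the 10 genes without overlap between stiff and soft tumours was 1, and it was 2 with coding variants (Notch4 and Ppp1r10), 2 per 1000 protein-altering variants (Ppp1r10 and Cfb), 1 with MODIFIER variants (Ager in place of Ppp1r10; the summed MODIFIER count, at -19.6%, did not overlap either), and 1 to 3 with each tumour left out. For KO and WT hosts it was 1 to 2 with each tumour left out, a condition that fewer tumours meet more easily. For host and gel tumours it was 1, and 0 for MODIFIER variants. edgeR called 0 genes between stiff and soft and between KO and WT under all 13 alternatives of each; between host and gel DESeq2 called 5, and edgeR 0 to 3 with each tumour left out, 3 without A2. The share of the lowest counts was 47.8% to 48.9% except without A9 and B5, where it was 70.6%. No paired analysis was possible because the groups compared share no sample numbers, and equal numbers in the gel and host experiments name different tumours. The unknown depth limits what a count of 0 shows.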
